A study of Rattus norvegicus with 22 samples.

Results

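Arc, Egr1, Egr2, Egr3, Egr4, Npas4, Nr4a1, Nr4a2 and Homer1 are neuronal activity genes outside the AP-1 family. They were taken by name from a list, and all 9 were among the 17172 genes of the count table and among the 12875 genes that passed the filter on low counts. RNA-seq of the ipsilateral (right) hippocampus was available from 14 adult male Sprague-Dawley rats, each library from 1 rat. Rats of the TBI groups received lateral fluid percussion injury, a pulse of fluid against the exposed dura that gives a moderate traumatic brain injury, and were killed 1 day later (TBI day 1, n = 4) or 14 days later (TBI day 14, n = 4). Sham rats had the same anesthesia and craniectomy without the fluid pulse and were killed at the same times (sham day 1, n = 2; sham day 14, n = 4). Rats of every group were under isoflurane when they were decapitated, and the whole hippocampus was taken, so the libraries are of bulk tissue.

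The transcription of these genes is started within minutes when synaptic input or depolarization lets calcium into a neuron, through calcium-dependent kinases and the MAP kinase pathway that act on the factors CREB, SRF and MEF2, and most of the transcripts last only a few hours. Egr1 to Egr4 are zinc finger transcription factors, Npas4 is a bHLH-PAS factor that is induced by calcium entry in neurons, and Nr4a1 and Nr4a2 are orphan nuclear receptors. Arc and Homer1 act at the synapse: Arc protein drives removal of AMPA receptors from the membrane, and Homer proteins link metabotropic glutamate receptors to other proteins of the postsynaptic density, with the short Homer1a isoform induced by activity. In the hippocampus these genes are widely used as a readout of recent neuronal activity and have roles in synaptic plasticity and memory.

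Promoter sequences were available for 7 of the 9 genes, from RefSeq on GRCr8, as 300 bases from 250 before to 50 after the annotated start, and 4 are shown as those with 2 or more matches to the elements searched. Capitals mark the CArG box (the site of SRF), TGACG (the half-site of CREB, which lies within the full CRE, TGACGTCA) and GCGNGGGCG (the site of EGR proteins), each searched on both strands, so that a half-site on the opposite strand reads CGTCA. Egr1 lies at chr18:26736828-26737127 on the plus strand, Egr2 at chr20:21054392-21054691 on the minus strand, Egr4 at chr4:119607768-119608067 on the minus strand and Nr4a1 at chr7:134259888-134260187 on the plus strand.
Egr1: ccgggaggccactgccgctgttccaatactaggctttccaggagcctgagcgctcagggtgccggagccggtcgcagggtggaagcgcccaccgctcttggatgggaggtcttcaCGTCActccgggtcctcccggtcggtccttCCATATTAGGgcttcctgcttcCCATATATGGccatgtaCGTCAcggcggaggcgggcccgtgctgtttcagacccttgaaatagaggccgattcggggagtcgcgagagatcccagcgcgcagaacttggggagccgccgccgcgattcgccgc
Egr2: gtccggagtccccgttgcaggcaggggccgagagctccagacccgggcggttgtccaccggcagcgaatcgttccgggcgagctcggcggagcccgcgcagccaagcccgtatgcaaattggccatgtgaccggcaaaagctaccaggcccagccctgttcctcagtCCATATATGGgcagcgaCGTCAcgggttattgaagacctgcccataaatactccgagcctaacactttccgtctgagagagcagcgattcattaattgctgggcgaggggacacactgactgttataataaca
Egr4: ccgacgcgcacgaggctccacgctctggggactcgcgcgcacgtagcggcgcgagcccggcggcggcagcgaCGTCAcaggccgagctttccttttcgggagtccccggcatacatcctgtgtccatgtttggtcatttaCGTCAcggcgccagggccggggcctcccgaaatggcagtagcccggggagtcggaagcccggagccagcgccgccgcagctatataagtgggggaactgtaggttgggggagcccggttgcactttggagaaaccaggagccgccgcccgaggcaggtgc
Nr4a1: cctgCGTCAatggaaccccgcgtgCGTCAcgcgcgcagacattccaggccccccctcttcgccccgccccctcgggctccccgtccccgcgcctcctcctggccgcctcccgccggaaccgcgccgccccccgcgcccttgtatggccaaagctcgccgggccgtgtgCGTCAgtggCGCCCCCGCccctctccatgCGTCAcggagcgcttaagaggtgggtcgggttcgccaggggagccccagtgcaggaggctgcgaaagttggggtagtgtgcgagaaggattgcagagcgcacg

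Egr1 has 2 CArG boxes, at −105 to −96 and −83 to −74 from the start, and Egr2 has 1, at −83 to −74. A CArG box was found in 2 of the 7 promoters and in 1.64% of all 33469 promoters of the same length. A CREB half-site was found in 5 of the 7 (Egr1, Egr2, Egr4, Nr4a1 and Nr4a2) and in 21.2% of all promoters, with 4 matches in Nr4a1 and 2 each in Egr1 and Egr4. The EGR site was found in 1 of the 7 (Nr4a1, at −73 to −65) and in 4.98% of all promoters. The full CRE and the NBRE (AAAGGTCA, a site of NR4A receptors) were found in 0 of the 7 and in 1.83% and 1.43% of all promoters, and TATAAA in 1 (Homer1) and in 14.2%. These matches describe letters in the window and were not tested for binding.

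Total counts were 15065540 to 23743703 per sample, and the 9 genes had 34 to 4207 counts in a sample, with no sample at 0. Expression is given as log2 CPM, the log2 of counts per 1000000 library counts after TMM scaling, and levels are compared within a gene only, since gene lengths were not used. A gene was called a differentially expressed gene (DEG) when its adjusted p was under 0.05 in edgeR's quasi-likelihood test of all 14 samples, adjusted over 12875 genes. All 16 neuron markers were expressed in every group, and for the hippocampal label 8 of 10 granule and pyramidal neuron markers, Prox1 and Calb1 among them, passed the filter on low counts. Sham day 1 replicate 1 stood apart from its partner by its choroid plexus markers (mean log2 CPM of 12 markers 6.56 against −0.24 in replicate 2), as did TBI day 14 replicates 2 and 3 (4.02 and 5.88), while the other samples lay between 0.31 and 0.76. TBI day 1 replicate 1 stood apart by its neuron markers (mean log2 CPM 7.79, against 8.67 to 8.86 in the other TBI day 1 rats).

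**Figure D1:**
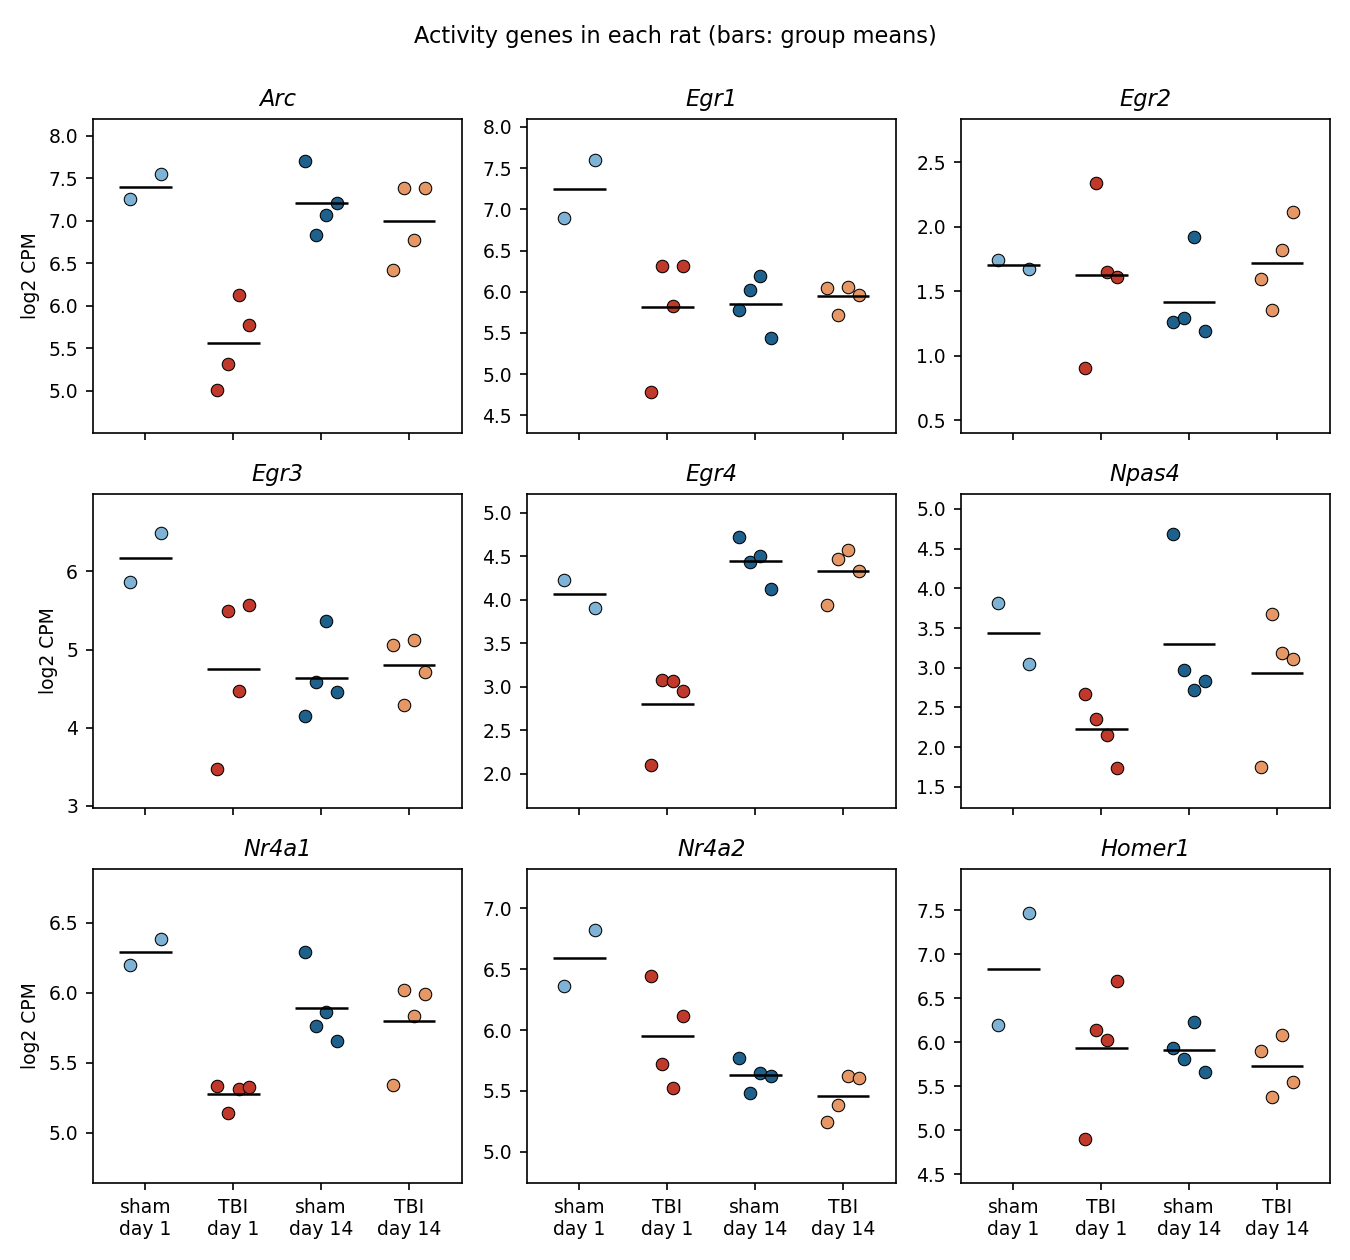
Expression of the 9 activity genes in each of 14 rats. Each panel is 1 gene, the vertical axis is log2 CPM (its range differs between panels), points are rats and bars are group means. Arc, Egr4, Nr4a1 and Npas4 had all 4 TBI day 1 rats below all 6 sham rats, whereas Egr1 and Egr3 had the sham day 1 rats above every other rat.

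At 1 day post-TBI, 4 of the 9 genes were lower than in sham day 1 and 0 were higher: Arc, Egr1, Egr4 and Nr4a1. Over all tested genes 7.93% were called lower and 11.2% higher in this comparison. The median log2 fold change of the 9 genes was −1.23, beside −0.02 over all tested genes. For 6 genes, the 4 called and Egr3 and Npas4, every TBI rat lay below both sham rats, as it did for 14.1% of all tested genes. Egr2 was the exception in direction, with a log2 fold change of 0.01.

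Arc was 7.26 and 7.55 log2 CPM in the sham day 1 rats and 5.003, 5.32, 6.13 and 5.78 in the TBI day 1 rats. The groups did not overlap, and Arc was 3.46-fold lower after injury (log2 fold change −1.79, SE 0.31, adjusted p = 0.00124 by edgeR). It was 7.70, 6.84, 7.07 and 7.21 in sham day 14 and 6.42, 7.39, 6.78 and 7.39 in TBI day 14, where the groups overlapped and the difference was not called (log2 fold change −0.19, SE 0.26, adjusted p = 0.878 by edgeR). In the order of group means, sham day 1, sham day 14 and TBI day 14 overlapped with their neighbours, and TBI day 1 lay below all 10 other rats.

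Homer1, the other synaptic gene of the set, was 6.20 and 7.47 log2 CPM in sham day 1 and 4.90, 6.14, 6.02 and 6.70 in TBI day 1. The groups overlapped, since TBI day 1 replicate 4 exceeded sham day 1 replicate 1, and the decrease was not called (log2 fold change −0.90, SE 0.38, adjusted p = 0.107 by edgeR). It was decided by single libraries: without sham day 1 replicate 1 the value was −1.40, adjusted p = 0.0253 by edgeR, and without replicate 2 it was −0.13, adjusted p = 0.908 by edgeR, in fits where the lone sham rat was assumed to vary like the other groups. Without TBI day 1 replicate 4 it was −1.19, adjusted p = 0.0313 by edgeR. Counts were per gene, so the activity-induced Homer1a and the long isoforms could not be told apart.

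Among the zinc finger factors, Egr1 was 6.89 and 7.60 log2 CPM in sham day 1 and 4.79, 6.31, 5.83 and 6.32 in TBI day 1. It was 2.57-fold lower 1 day post-TBI (log2 fold change −1.36, SE 0.32, adjusted p = 0.00873 by edgeR), with no overlap between the groups. This call was lost without sham day 1 replicate 2 (−0.97, adjusted p = 0.167 by edgeR), where the lone sham rat was again assumed to vary like the other groups, and in a fit of only the 6 day 1 rats (−1.34, adjusted p = 0.0813 by edgeR). At day 14 Egr1 was 5.77, 6.02, 6.19 and 5.44 in sham and 6.05, 5.71, 6.06 and 5.96 in TBI, with overlapping groups and a log2 fold change of 0.07 (adjusted p = 0.97 by edgeR).

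Egr3 was 5.86 and 6.49 log2 CPM in sham day 1 and 3.47, 5.49, 4.46 and 5.57 in TBI day 1. All TBI rats were below both sham rats, but the TBI rats spread over a wide range and the decrease was not called (log2 fold change −1.24, SE 0.45, adjusted p = 0.0644 by edgeR). It was called without TBI day 1 replicate 2 (−1.46, adjusted p = 0.0493 by edgeR) or replicate 4 (−1.51, adjusted p = 0.0297 by edgeR). At day 14 it was 4.15, 4.58, 5.36 and 4.46 in sham and 5.06, 4.29, 5.13 and 4.71 in TBI, again with overlap.

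Egr4 was 4.23 and 3.91 log2 CPM in sham day 1 and 2.11, 3.08, 3.06 and 2.96 in TBI day 1. Every TBI rat was lower than both sham rats, a 2.36-fold decrease (log2 fold change −1.24, SE 0.25, adjusted p = 0.00364 by edgeR). The call was lost in a fit of only the 6 day 1 rats (−1.22, adjusted p = 0.0584 by edgeR). At day 14 it was 4.72, 4.43, 4.51 and 4.13 in sham and 3.94, 4.47, 4.57 and 4.33 in TBI, and these groups overlapped.

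Egr2, the member with the fewest counts (34 to 122 in a sample), was 1.74 and 1.68 log2 CPM in sham day 1 and 0.90, 2.34, 1.65 and 1.61 in TBI day 1. The TBI rats lay on both sides of the sham rats, and the interval of the difference ran from −0.77 to 0.79 on the log2 scale (log2 fold change 0.01, SE 0.37, adjusted p = 0.986 by edgeR). It was 1.26, 1.29, 1.92 and 1.19 in sham day 14 and 1.60, 1.36, 1.82 and 2.11 in TBI day 14. All neighbouring groups overlapped in the order of their means.

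Npas4 was 3.82 and 3.05 log2 CPM in sham day 1 and 2.67, 2.36, 2.16 and 1.73 in TBI day 1. All TBI rats were below both sham rats, and the decrease was not called (log2 fold change −1.23, SE 0.54, adjusted p = 0.12 by edgeR). At day 14 Npas4 was 4.69, 2.97, 2.72 and 2.83 in sham and 1.75, 3.68, 3.19 and 3.11 in TBI. The sham group was spread by replicate 1 and the TBI group by its replicate 1, and the groups overlapped.

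Of the orphan nuclear receptors, Nr4a1 was 6.20 and 6.39 log2 CPM in sham day 1 and 5.34, 5.14, 5.31 and 5.32 in TBI day 1. The 4 TBI rats lay within a narrow range below both sham rats, a 2.02-fold decrease (log2 fold change −1.02, SE 0.19, adjusted p = 0.00213 by edgeR). Arc and Nr4a1 remained called in every alternative fit of this comparison, each sample left out in turn included. At day 14 Nr4a1 was 6.29, 5.76, 5.86 and 5.66 in sham and 5.34, 6.02, 5.83 and 5.99 in TBI, with overlap.

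Nr4a2 was 6.36 and 6.82 log2 CPM in sham day 1 and 6.45, 5.72, 5.52 and 6.11 in TBI day 1. Replicate 1 of TBI day 1 exceeded a sham rat, and the decrease was not called (log2 fold change −0.62, SE 0.22, adjusted p = 0.0573 by edgeR). Without that replicate it was called (−0.81, adjusted p = 0.00785 by edgeR), as it was without sham day 1 replicate 1 (−0.83, adjusted p = 0.0342 by edgeR), where the lone sham rat took its spread from the other groups. At day 14 it was 5.77, 5.48, 5.65 and 5.62 in sham and 5.24, 5.38, 5.62 and 5.60 in TBI, where the groups overlapped.

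At 14 days post-injury, 0 of the 9 genes were called in either direction, with adjusted p of 0.787 to 0.97 by edgeR, and 0 had an unadjusted p under 0.05. Over all tested genes 4.07% were called higher and 0.365% lower at day 14. The log2 fold changes ran from −0.48 (Npas4) to 0.31 (Egr2), with a median of −0.12 beside −0.03 over all genes. For 0 genes did all TBI day 14 rats lie below all sham day 14 rats, as they did for 5.86% of tested genes. The interval of Arc ran from −0.75 to 0.37, and that of Nr4a1 from −0.44 to 0.25, so a decrease of the size estimated at day 1 lay outside both. That of Npas4 ran from −1.44 to 0.48 and held its day 1 value of −1.23. These intervals leave out the spread of the day 1 values.

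The injury effect at day 1 minus that at day 14 was negative for all 9 genes and was called for Arc alone (log2 fold change −1.60, SE 0.41, adjusted p = 0.0432 by edgeR), while 1.44% of all tested genes were called in that direction. Arc kept this call in 6 of the 14 fits that left out 1 rat, and lost it without either sham day 1 rat, TBI day 1 replicate 2, sham day 14 replicates 2, 3 or 4 or TBI day 14 replicates 2 or 4 (−1.45 to −1.74, adjusted p of 0.0529 to 0.143 by edgeR). Nr4a1 (−0.92, adjusted p = 0.0557 by edgeR), Egr4 (−1.12, adjusted p = 0.0722) and Egr1 (−1.44, adjusted p = 0.0741) were next. Between the injured rats themselves, Arc was 2.7-fold, Egr4 2.84-fold and Nr4a1 1.46-fold higher in TBI day 14 than in TBI day 1, with adjusted p of 0.000824, 0.000108 and 0.0156 by edgeR. These were 3 of 9 genes, beside 17.6% of all tested genes, and Nr4a1 was not called without TBI day 14 replicate 2 (0.47, adjusted p = 0.0516 by edgeR). Nr4a2 was the 1 gene lower at TBI day 14 than at TBI day 1 (log2 fold change −0.53, SE 0.18, adjusted p = 0.0316 by edgeR), beside 21.9%. This call did not hold when TBI day 1 replicate 1 or 4 or TBI day 14 replicate 1 or 2 was left out (−0.34 to −0.50, adjusted p of 0.069 to 0.0957 by edgeR).

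**Figure D2:**
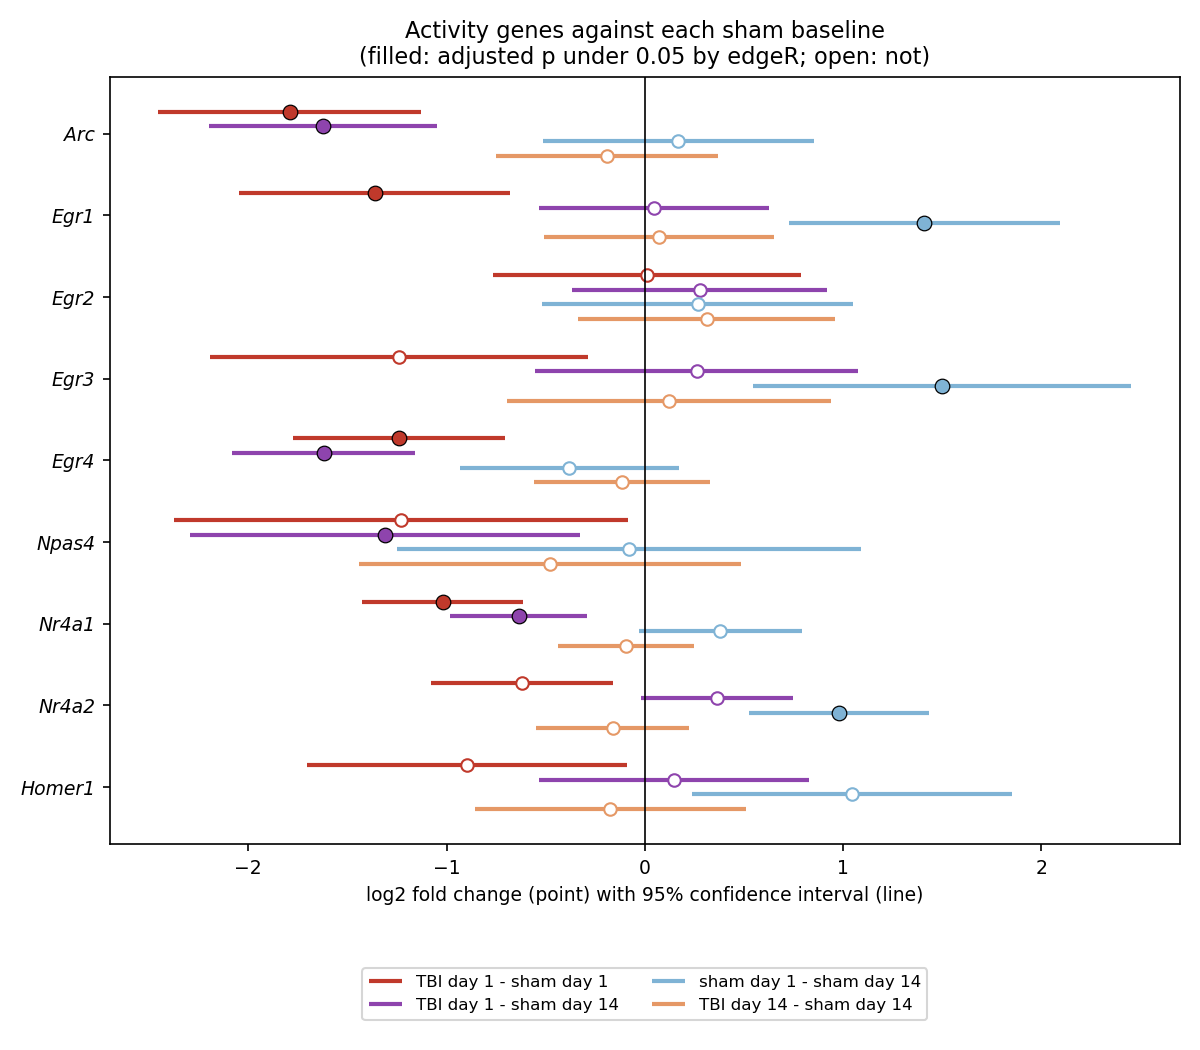
Log2 fold changes of the 9 activity genes in 4 comparisons that share groups. Points are edgeR estimates (filled where the adjusted p was under 0.05) and lines are 95% confidence intervals. Arc, Egr4, Nr4a1 and Npas4 lay below 0 for TBI day 1 against either sham group, whereas the values of Egr1 and Egr3 against sham day 14 were 0.05 and 0.26.

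The choice of sham baseline divided the genes. Against sham day 14, the baseline that the study used for its trajectories, Arc, Egr4, Npas4 and Nr4a1 were lower in TBI day 1, which is 4 of 9, beside 21.0% of all tested genes. Egr1, called against sham day 1, was at 0.05 (adjusted p = 0.904 by edgeR) against sham day 14. The 2 comparisons share the TBI day 1 rats, so their values are given side by side and not as separate evidence. For its trajectories the study also adjusted for batch and for change in the sham rats with time. The model here held group means only, so its comparisons across days had no such correction.

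Arc was −1.79 against sham day 1 and −1.62 against sham day 14 on the log2 scale. Egr4 was −1.24 and −1.62, and Nr4a1 was −1.02 and −0.64, in the same order. Npas4 was −1.23 and −1.31, with the second called (adjusted p = 0.0305 by edgeR). For these 4 genes every TBI day 1 rat lay below all 6 sham rats, as it did for 7.53% of all tested genes. The Npas4 call rested on single libraries: it was lost without sham day 14 replicate 1 (−0.59, adjusted p = 0.214 by edgeR) and without TBI day 1 replicates 2, 3 or 4 (adjusted p of 0.0567 to 0.0782 by edgeR).

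The other members had log2 fold changes of 0.05 to 0.36 against sham day 14. Egr3 was −1.24 against sham day 1 and 0.26 against sham day 14, Homer1 was −0.90 and 0.15, and Nr4a2 was −0.62 and 0.36. None of these, nor Egr1 and Egr2, was called against sham day 14, and the intervals were −0.53 to 0.63 for Egr1, −0.55 to 1.07 for Egr3, −0.53 to 0.83 for Homer1 and −0.02 to 0.75 for Nr4a2. Nr4a2 was called higher in 1 of the 8 fits that left out 1 rat.

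The sham groups themselves differed in these genes. Egr1 was 2.66-fold, Egr3 2.83-fold and Nr4a2 1.97-fold above sham day 14 in the sham day 1 rats (adjusted p of 0.00946, 0.0315 and 0.0083 by edgeR), which is 3 of 9 genes, beside 11.3% of all tested genes, and 0 were lower, beside 7.88%. Both sham day 1 rats lay above all 4 sham day 14 rats for these 3 genes, as they did for 21.3% of all tested genes. Homer1 was at 1.05 and was not called (adjusted p = 0.065 by edgeR), and it was at 1.55, adjusted p = 0.0218 by edgeR without sham day 1 replicate 1 and at 0.27, adjusted p = 0.746 by edgeR without replicate 2. Arc (0.17), Nr4a1 (0.38), Npas4 (−0.08) and Egr4 (−0.38) were not called either. Without sham day 1 replicate 2, when the lone sham day 1 rat took its spread from the other groups, 0 of the 9 genes were called between the sham groups, with Egr1 at 1.01, adjusted p = 0.125 by edgeR and Egr3 at 1.15, adjusted p = 0.223 by edgeR. Egr3 also lost its call without sham day 14 replicates 1, 2 or 4 (1.35 to 1.46, adjusted p of 0.0724 to 0.0813 by edgeR). With all 6 sham rats as 1 baseline, Arc was −1.68, adjusted p = 0.000132 by edgeR, Egr4 −1.50, adjusted p = 8.54e-05 by edgeR, Nr4a1 −0.77, adjusted p = 0.00249 by edgeR, Npas4 −1.28, adjusted p = 0.0283 by edgeR and Egr1 −0.58, adjusted p = 0.243 by edgeR.

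**Figure D3:**
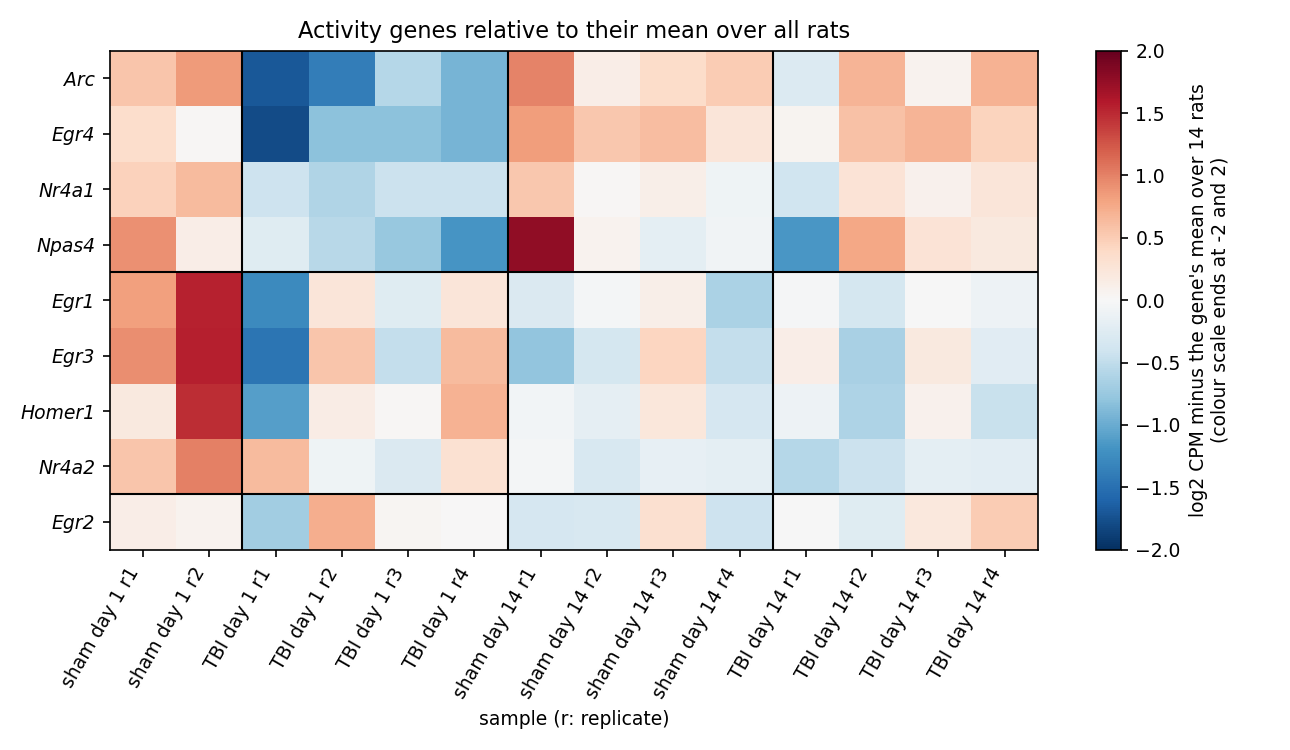
Log2 CPM of each gene minus its mean over the 14 rats, by rat (columns) and gene (rows, ordered by hand in 3 blocks). Blue is below and red above the gene's mean. Arc, Egr4, Nr4a1 and Npas4 are blue in TBI day 1, Egr1, Egr3, Homer1 and Nr4a2 are red in sham day 1, and Egr2 follows neither.

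Across the 14 rats, likeness was measured as the root mean square difference of log2 CPM after each gene was centred on its own mean, as a description. The closest pairs among the 9 genes were Egr1 with Egr3 (0.26), Egr1 with Homer1 (0.28), Egr3 with Homer1 (0.36) and Arc with Egr4 (0.38). Egr3 and Npas4 were the farthest apart (1.17). The 4 EGR genes did not lie together, since Egr4 was 0.84 from Egr1 and 0.98 from Egr3. All pairs share the same libraries, so depth and tissue composition enter each value.

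In the whole table, the genes whose levels ran most like Egr1 were Rbfox1 (0.21) and Stxbp6 (0.23), and those most like Homer1 were Rbfox1 (0.14), Nol4 (0.15) and Ppp3r1 (0.16). Egr3 was most like Erc1 (0.24), Erc2 (0.24) and Pak3 (0.26). Arc was most like Pcdha12 (0.32), Fzd9 (0.35) and RGD1310110 (0.37), and Egr4 most like Acpl2 (0.23), Bok (0.25) and Tspan33 (0.26). Nr4a1 was most like Abcd2 (0.21), Ncald (0.21) and Ift80 (0.22), Nr4a2 most like Satb1 (0.12), Camk2n1 (0.20) and Dlg1 (0.21), and Egr2 most like Cmtr2 (0.22), Atf6 (0.22) and Rnf4 (0.22). Npas4 had the most distant neighbours, Hpd (0.47), Aifm3 (0.51) and Nr4a1 (0.51). The SD over the 14 rats was 0.38 for Egr2 and 0.41 for Nr4a1, beside 0.65 for Egr1, 0.805 for Npas4 and 0.85 for Arc. A gene that varies less has smaller distances to other such genes, so the values do not rank likeness between members.

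Some neuron markers also fell. At 1 day post-TBI, 5 of 16 neuron markers were lower than in sham day 1 and 0 higher, beside 7.93% and 11.2% of all tested genes. The log2 fold changes of the 16 markers had a median of −0.71 and a range of −1.23 to −0.37. The called ones were Gria1 (−1.23), Rbfox3 (−0.88), Tubb3 (−0.74), Slc17a7 (−0.72) and Gad1 (−0.67). Against sham day 14, 9 of the 16 were lower, beside 21.0% of all tested genes, and 1 was higher (range −1.58 to 0.57). Rbfox3 was 6.67, 7.72, 7.20 and 7.80 log2 CPM in TBI day 1. It was 6.90, 7.13, 7.37 and 6.73 in sham day 14, so these groups overlapped. Summed over the list, expression ranged from 7028 to 11760 CPM in TBI day 1, below the range of sham day 1 (14040 to 18310) and of sham day 14 (12260 to 14760). The range of TBI day 14 was 10560 to 12340. TBI day 1 replicate 1 had the lowest sum of all rats. In this rat 6 of the 9 activity genes were lowest of their group, and the other 3 (Npas4, Nr4a1 and Nr4a2) were highest. It lay below the group mean for 6 of the 9 genes, beside 54.95% of all tested genes. In bulk tissue, fewer neurons and less RNA per neuron cannot be told apart.

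Relative to the counts of the 16 neuron markers in the same library, Arc had 3.59 to 6.05 counts per 1000 in TBI day 1, with no overlap with the sham rats (10.2 and 10.9 at day 1, 8.36 to 16.95 at day 14). Egr4 had 0.598 to 0.753 per 1000 in TBI day 1, also with no overlap with the sham rats (0.816 and 1.33 at day 1, 1.41 to 2.14 at day 14). Nr4a1 had 3.18 to 5.73 in TBI day 1 and 4.56 to 5.23 in sham day 1, where TBI day 1 replicate 1 was above both sham rats and the others below. Egr1 had 3.91 to 7.16 in TBI day 1, below the 8.44 and 10.6 of sham day 1 and overlapping the 3.49 to 4.93 of sham day 14. Npas4 (0.274 to 0.893 in TBI day 1, 0.446 and 0.998 in sham day 1), Homer1 (4.22 to 8.82, 5.22 and 9.67) and Nr4a2 (3.97 to 12.4, 5.85 and 6.18) overlapped with sham day 1 on this scale, and Egr3 (1.56 to 4.05, 4.13 and 4.91) did not. Egr2 was higher on this scale, with 0.251 to 0.448 per 1000 in TBI day 1, above 0.169 and 0.230 in sham day 1 and just above the 0.172 to 0.249 of sham day 14. The lowest of these TBI day 1 values rested on 34 Egr2 counts. Without division by the neuron markers, the log2 fold change of Egr2 against sham day 1 was 0.01. The summed neuron markers of TBI day 1 lay below those of the sham rats, so a gene with unchanged CPM rises on this scale. The share of all tested genes without overlap on this scale was not computed. With the mean neuron marker level of each rat as a covariate, a fit chosen after seeing the data, Arc was −1.50, adjusted p = 0.0343 by edgeR, Nr4a1 −1.12, adjusted p = 0.0129 by edgeR, Egr4 −0.87, adjusted p = 0.0864 by edgeR and Egr1 −0.24, adjusted p = 0.447 by edgeR against sham day 1. The marker level of the TBI day 1 rats did not overlap that of the sham rats, so this fit extends beyond shared values.

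**Figure D4:**
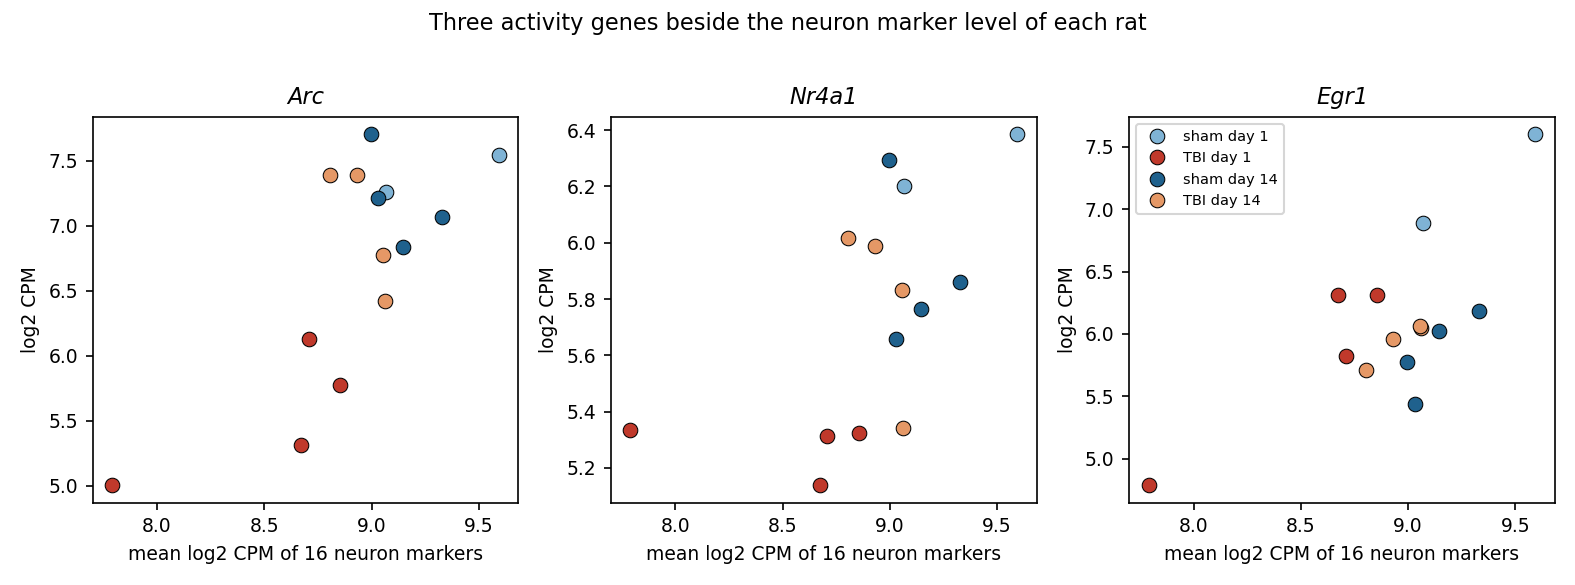
Log2 CPM of Arc, Nr4a1 and Egr1 (vertical axes) against the mean log2 CPM of 16 neuron markers (horizontal axis) in each of 14 rats, coloured by group. TBI day 1 rats lie at 7.79 to 8.86 on the horizontal axis and sham rats at 8.997 to 9.59. The Arc and Nr4a1 values of TBI day 1 are below those of all sham rats, and those of Egr1 spread around the sham day 14 values.

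Choroid plexus markers were high in sham day 1 replicate 1, and the day 1 comparison was therefore also made with them in the model and without that rat. With the choroid plexus level of each rat as a covariate, the log2 fold changes were −1.86 for Arc, −1.48 for Egr1, −1.06 for Egr4 and −1.01 for Nr4a1, all with an adjusted p under 0.05 by edgeR. Without sham day 1 replicate 1 they were −1.93, −1.68, −1.07 and −1.11, all called, with the lone sham rat assumed to vary like the other groups.

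Reactive astrocyte, microglial and acute injury genes ran the other way. Other glial lists did not. Homeostatic astrocyte markers had a median of −0.53 at day 1, with 1 of 6 lower and 0 higher. Oligodendrocyte markers also had a median of −0.53, with 2 of 6 lower and 0 higher, beside 7.93% and 11.2% of all tested genes. All 12 reactive astrocyte markers were higher 1 day post-TBI than in sham day 1, with a median of 3.95 on the log2 scale, and 9 of 12 were higher at day 14, with a median of 1.79. Of all tested genes, 11.2% were higher at day 1 and 4.07% at day 14. Gfap and Vim, filament proteins of reactive astrocytes, were at 3.10 and 3.02 at day 1 and at 2.06 and 2.12 at day 14, and Serpina3n, a secreted protease inhibitor, was at 9.47 and 2.65, all called.

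Of 12 microglia and macrophage markers, 7 were higher at day 1 (median 1.49) and 12 at day 14 (median 1.65). Aif1, a calcium-binding protein of microglia, was at 1.33 and 1.28, and Cd68, a lysosomal protein of phagocytes, at 3.85 and 4.93, all called. Among acute injury genes, 9 of the 9 tested were higher at day 1 (median 3.74) and 6 at day 14 (median 1.57). Spp1, which encodes osteopontin, was at 10.14 and 6.00, both called, and had 21 and 18 counts in the sham day 1 rats. The 9 activity genes summed to between 239.8 and 408 CPM in TBI day 1, beside 594.2 and 870.5 in the sham day 1 rats and 389.2 to 528.2 in sham day 14, which overlapped TBI day 1. The reactive astrocyte markers summed to between 9925 and 15780 CPM in TBI day 1, beside 1038 and 1789 in sham day 1. Most of each astrocyte sum was Gfap, at 6987 to 13060 CPM in TBI day 1 and 952.3 and 1558 in sham day 1. Each sum is compared between rats, not with the other sum.

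**Figure D5:**
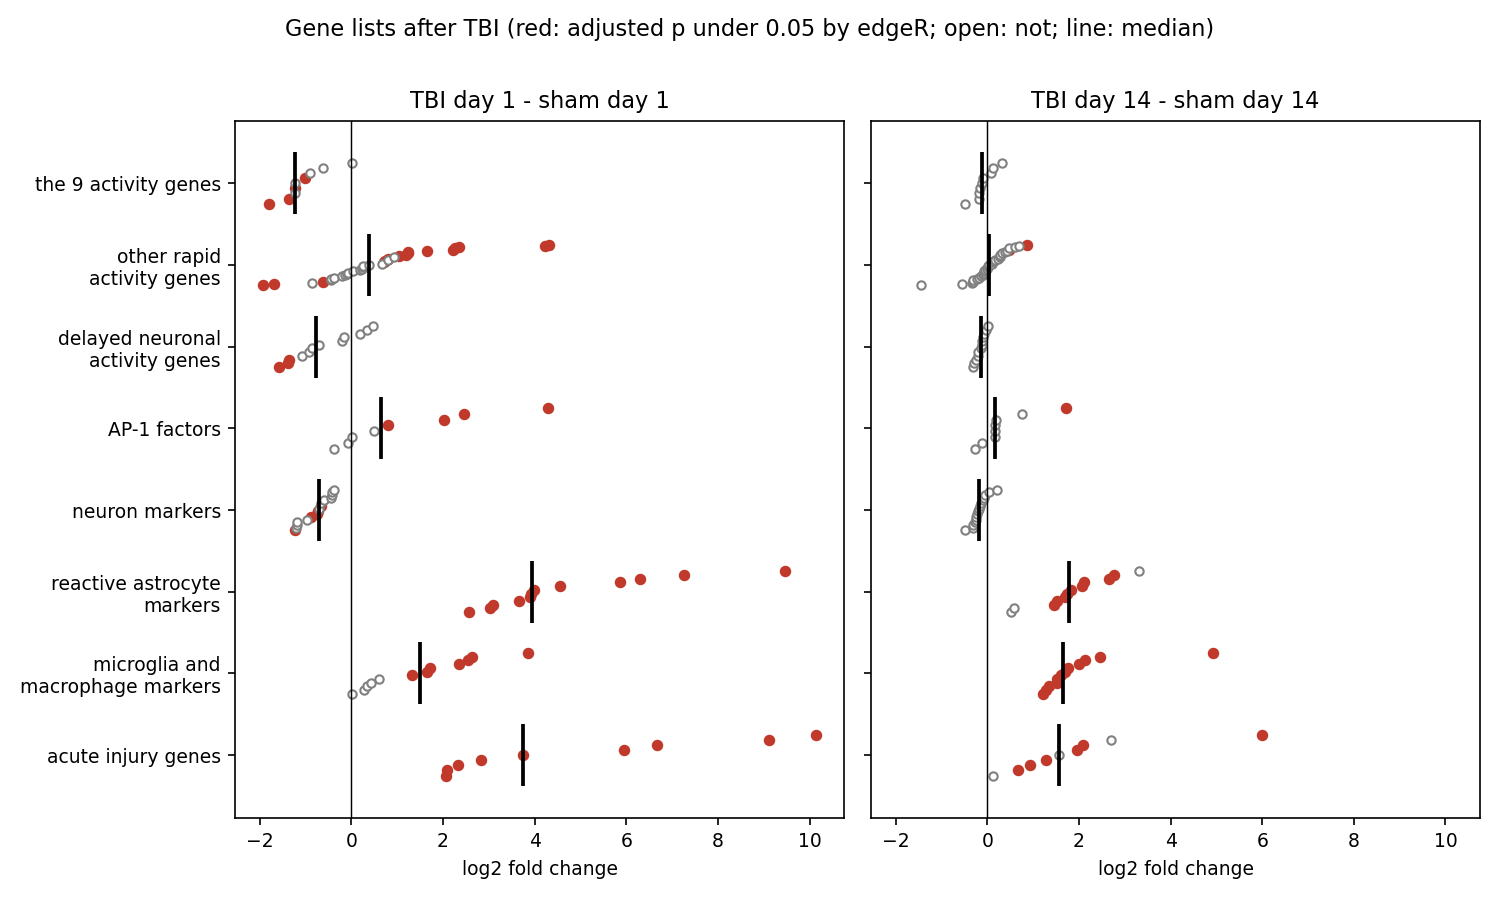
Log2 fold changes of each tested gene of 8 lists for TBI against sham at day 1 (left) and day 14 (right). Each point is a gene (red where the adjusted p was under 0.05 by edgeR, open where not) and black lines are list medians; Ccl2 and Il1b, with at most 3 and 1 counts in a sham day 1 rat, are at fitted values. The activity genes and neuron markers lie at or left of 0.01 at day 1, and the reactive astrocyte and acute injury genes lie to the right at day 1.

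Of 33 other activity-responsive rapid genes, 13 were higher and 3 lower 1 day post-TBI (median 0.39), beside 11.2% and 7.93% of all tested genes. At day 14, 2 were higher and 0 lower, beside 4.07% and 0.365%. The increases with the largest fold changes were those of Maff (4.31), Cyr61 (4.22), Zfp36 (2.35) and Trib1 (2.27), which are also induced in cells other than neurons. Against sham day 14 they were at 4.19, 1.87, 2.84 and 3.21, all called. Cyr61 was itself lower in sham day 1 than in sham day 14 (−2.35, adjusted p = 0.0171 by edgeR). The decreases were Nr4a3 (−1.93), the third NR4A receptor, Dusp4 (−1.68), a MAP kinase phosphatase, and Arl4d (−0.63). Gadd45g (0.86) and Ier5 (0.47) were those higher at day 14.

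Nr4a3 was 6.15 and 7.61 log2 CPM in sham day 1 and 3.09, 4.83, 5.24 and 6.04 in TBI day 1 (log2 fold change −1.93, SE 0.55, adjusted p = 0.0239 by edgeR). All TBI rats were below both sham rats, over a wide range within each group. Against sham day 14 (5.91, 5.69, 6.76 and 5.76) the groups overlapped and the difference was not called (−0.97, adjusted p = 0.106 by edgeR).

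Of 8 AP-1 factors, which are induced by activity and by injury, 4 were higher at day 1 and 0 lower (median 0.65), beside 11.2% and 7.93% of all tested genes. The 4 were Atf3 (4.29), Fosl1 (2.46), Fos (2.03) and Junb (0.80). Fos is used as an activity marker beside Arc and Egr1. It was 3.13 and 3.00 log2 CPM in sham day 1 and 5.18, 5.54, 4.97 and 4.43 in TBI day 1, so the TBI rats were above both sham rats for Fos and below both for Arc. At day 14, 1 AP-1 gene was higher, Atf3 (1.71), beside 4.07% of all tested genes.

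Against the sham rats of the same day, genes that neurons induce later or use with the 9 genes changed in the same direction or were not called. Of 12 delayed neuronal activity genes, 3 were lower at day 1 and 0 higher (median −0.78), beside 7.93% and 11.2% of all tested genes. The 3 were Pcsk1 (−1.57), a convertase of prohormones, Nrn1 (−1.37), which promotes neurite growth, and Nptx1 (−1.37), which gathers AMPA receptors at synapses. Of 20 tested kinases and factors upstream, 3 were lower and 0 higher (median −0.45), beside the same shares of all tested genes. Those lower were Camkk2 (−1.21), Camk4 (−1.14) and Camk2b (−0.86), 3 calcium/calmodulin-dependent kinases. At day 14, 0 of either list were called, beside 0.365% of all tested genes called lower and 4.07% called higher. Between TBI day 1 and sham day 14, both lists held calls in both directions. The medians there were −0.75 for the delayed and 0.02 for the upstream genes, with highest values of 0.96 and 0.62.

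Of 16 partners and repressors of the encoded proteins, 3 were lower at day 1 and 0 higher (median −0.32), beside 7.93% and 11.2% of all tested genes. Among those lower were Grm5 (−1.04), a metabotropic glutamate receptor that Homer proteins bind, and Sh3gl3 (−0.47), an endophilin that binds Arc. At day 14, Rxrg (−1.12), a retinoid X receptor that pairs with NR4A receptors, was the 1 gene lower and 0 were higher. Of all tested genes, 0.365% were lower and 4.07% higher at that time.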

How the data were processed

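RNA-seq was measured in the ipsilateral hippocampus of 14 of the 22 samples of the series, and the H3K4me3 peak lists of the others were not used here. The authors made the deposited table of raw read counts per gene by sequencing stranded polyadenylated RNA libraries (single-end, 50 bases) and, per the submitters' processing notes, with STAR 2.4.2a and featureCounts 1.5.0; the strand setting of the counting is not given in the sources used here. Groups and replicate numbers came from the sample labels, and each library is 1 rat.

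Counts were fitted with edgeR 4.0.16 in R 4.3.3 (TMM factors, filterByExpr by group, quasi-likelihood test, two-sided) as 1 model of 4 groups with 10 residual degrees of freedom and 6 comparisons. P-values were Benjamini-Hochberg adjusted over 12875 genes, with a threshold of 0.05. The study used limma-voom, which is an alternative here (limma 3.58.1), as is DESeq2 1.42.0. Log2 CPM used a prior count of 2. Confidence intervals are at 95%. The test was also run on simulated counts drawn from its own fitted spread, with changes planted in the TBI day 1 group. The simulation held no differences in tissue composition between rats, so it could not check how the test deals with them.

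The 9 genes and the gene lists were chosen with earlier results of these data known. Named genes are all 9 members, fixed glial and injury references, in each list up to 4 called genes with the largest change in each direction, and for each member the 3 genes most like it, and some genes that meet this rule are not reported here. Lists are described by counts and medians without a set test. The other lists changed as follows at day 1: of 8 tested granule and pyramidal neuron markers 3 were lower, of 6 homeostatic astrocyte markers 1 was lower, of 6 oligodendrocyte markers 2 were lower, of 6 endothelial markers 2 were higher, of 11 tested choroid plexus markers 9 were lower and of 7 blood cell markers 2 were higher. Of all tested genes, 7.93% were lower and 11.2% higher. Promoters were matched by gene symbol to RefSeq sequences of GRCr8, and figures were drawn with matplotlib.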

Additional observations from a re-analysis of the deposited data

Results flagged for a closer look

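Over 27 groups of 4 rats (9 genes in 3 groups), a rat whose gap to its neighbour was large against the range of its group was found in 4, and chance gives about 1 in 20. Egr2 was 1.92 log2 CPM in sham day 14 replicate 3, above the other 3 rats of its group. Npas4 was 4.69 log2 CPM in sham day 14 replicate 1, above the others, and its decrease against sham day 14 was not called without this rat. Egr4 was 2.11 log2 CPM in TBI day 1 replicate 1, below the others, and Nr4a1 was 5.14 log2 CPM in TBI day 1 replicate 2, below the others. Both decreases were called with and without these rats.

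The effect of injury on Arc differed between the days, by −1.6 on the log2 scale (adjusted p = 0.0432 by edgeR, a test of the difference itself). At day 1 it was lower in 4 of 4 TBI rats than in both sham rats, and at day 14 the groups overlapped. The difference was called in 6 of the 14 fits that left out 1 rat (adjusted p up to 0.143 by edgeR), and it was not called with limma-voom, with the replicate block or with the choroid plexus or neuron marker score as a covariate.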

How the results depend on the processing

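Over 945 fits of 1 of the 9 genes under the planned settings, or without 1 rat, the sign differed from the reported one in 38, none of them called in either fit. Of 267 such fits of a called gene, 227 were also called.

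Of the genes lower at day 1 (4), 2 remained in a fit of only the groups compared. The count of genes with a more negative effect at day 1 than at day 14 (1) was 0 with limma-voom, 4 with DESeq2 and 0 with an adjusted p under 0.01. It was 0 with the choroid plexus score and 0 with the neuron marker score as a covariate. The 1 gene lower at TBI day 14 than at TBI day 1 became 0 with only the groups compared, 0 with an adjusted p under 0.01, 0 with the choroid plexus score and 3 with the neuron marker score. With the neuron marker score, chosen after seeing the data, 3 genes were higher in TBI day 1 than in sham day 14 (reported 0), and Egr1 was lower at TBI day 14 than at TBI day 1 by −0.53 (reported 0.03). The causes were not tested.

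With each sample left out in turn, the count for the difference between days ranged from 0 to 2, that of genes called between the sham groups from 0 to 4, that of genes higher in TBI day 1 than in sham day 14 from 0 to 1, and that of genes lower at TBI day 14 than at TBI day 1 from 0 to 1.

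Same-numbered samples did not deviate together (correlations of −0.348 to 0.243 over 18 pairs), so the numbers do not pair the rats. With the replicate block, the count for the difference between days was 0, that of genes lower at TBI day 14 than at TBI day 1 was 0, and that of genes lower at day 1 was 5 (Egr3 in addition). The Npas4 decrease against sham day 14 also lost its call there (adjusted p = 0.0516 by edgeR), and no other call of the 9 genes changed.

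The day 1 sham group has 2 rats, which limits every comparison with it.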

Other observations

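Beyond the 9 genes, the other lists were also compared between the sham groups, where 11.3% of all tested genes were called higher and 7.88% lower in sham day 1. Of 33 other rapid activity genes, 5 were higher and 2 lower in sham day 1 than in sham day 14, and of 12 delayed neuronal activity genes 1 was higher and 1 lower. Rgs2 (1.05) and Trib1 (0.94) were among the higher rapid genes, and Cyr61 (−2.35) and Amigo3 (−1.05) were the lower ones. Rgs4 (1.16) was the higher and Nptx2 (−1.50) the lower delayed gene on the log2 scale. Of 20 tested upstream kinases and factors 3 were higher, Mef2a (1.25), Mef2d (1.14) and Crtc1 (0.53), which take part in activity-dependent transcription, and 0 were lower. The lists were not tested against all genes. These genes were chosen after their values were seen, and the sham day 1 group has 2 rats.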
